A study of Mus musculus with 40 samples.

Results

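The 7 genes described here make, supply or switch on classical MHC class I molecules, and they were taken as the rows of the deposited RNA-seq table with the symbols H2-K1, H2-D1, B2m, Tap1, Tap2, Tapbp and Nlrc5. They are 7 of the 21950 genes of that table, and all 7 passed the filter on low values in every comparison. H2-K1 and H2-D1 are the class I heavy chains of the C57BL/6 background, B2m is the light chain (beta-2-microglobulin), Tap1 and Tap2 are the subunits of the peptide transporter, Tapbp is tapasin, which bridges the transporter and the empty class I molecule, and Nlrc5 is the transactivator of class I genes. Class I molecules show peptides of cytosolic proteins at the surface of almost every nucleated cell, T cells included. Peptides are cut by the proteasome, pumped into the endoplasmic reticulum by the transporter, trimmed and loaded with the help of tapasin, and only a heavy chain with light chain and peptide is stable at the surface. Interferons and NF-κB are known to raise these genes, and in T cells Nlrc5 is known to drive the heavy chains and the light chain through a shared promoter module.

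RNA was measured in 24 libraries of mouse splenic CD4+ T cells in 8 groups of 3. Cells came from Foxp3 reporter mice on the C57BL/6 background. The reporter was Foxp3-GFP for Tconvs and tTregs, and the study's methods name Foxp3-GFP or Foxp3-RFP for iTregs. Conventional T cells (Tconvs) and thymus-derived regulatory T cells (tTregs, named nTreg in the labels) were taken from mice of 2 to 4 months, each resting and activated. Induced regulatory T cells (iTregs) were made from naive CD4+ T cells of mice of 6 weeks with plate-bound anti-CD3 (0.5 μg/ml), anti-CD28 (1 μg/ml), TGF-β (2 ng/ml) and IL-2 for 4 days, sorted by the Foxp3 reporter and rested for 1 day. They were left resting, restimulated through CD3 and CD28, or restimulated with an inhibitor of store-operated calcium entry or with cyclosporin A (CsA), which blocks calcineurin and with it NFAT. The calcium entry libraries are labelled only as an ORAI inhibitor and are taken as CM-4620, the one such compound that the study's RNA-seq names. Ages and culture thus differ between iTregs and the other cells, the length of the activation is not given in the sources used here, and nothing says that replicates came from separate animals or cultures, so p-values measure the spread between these libraries only.

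Reads assigned to genes ranged from 5256800 to 15685234 per library, and the 7 genes took between 1.04% and 1.82% of them. In bulk RNA, fewer cells that express a gene and less RNA per cell cannot be told apart. The tTreg groups were the shallowest, with medians of 7582032 and 7131717 reads. Foxp3 lay between 9.65 and 11.3 normalized counts in resting Tconvs, 7218 and 7767 in resting tTregs and 1178 and 1338 in resting iTregs. Both kinds of Tregs thus lay above Tconvs, as the labels imply, and the labels imply no order between them. Summed over 5 Treg markers, Foxp3 among them, the level was 463 to 490 in resting and 5212 to 5434 in activated Tconvs. It was 31927 to 33802 in resting tTregs and 14620.5 to 18373 in resting iTregs. Of 4 B cell markers, Ms4a1 read 0 in all libraries, and the summed level of the list was 89.0 to 136 in tTregs against 16.0 to 44.3 elsewhere, most of it Cd79b in tTregs. The part of these cells in the tTreg values was not tested. Of 4 myeloid markers, Lyz2 read 0 throughout 6 of the 8 groups, and the 4 markers together reached 117 at most. The widest differences between libraries of a group were in tTregs, where the variance between 2 libraries was 12.67 to 36.27 times that of counting. Resting iTreg replicate 3 came within that range, at 16.41 and 13.48 against replicates 1 and 2. All other pairs lay between 2.693 and 9.356. The dependence of the level on GC content ran from -0.21 to 0.03 (log2 per 10% GC) over the 3 resting and from -0.06 to 0.20 over the 3 activated tTreg libraries, against -0.23 to -0.14 in resting Tconvs and 0.06 to 0.14 in resting iTregs. The level of long against short transcripts was also highest in resting tTregs, by 0.34 to 0.37 (log2 per doubling of length), and it was below 0 in activated Tconvs and in all iTreg libraries. B2m has a short transcript of low GC content (860 bases, 41.2% GC), while the other 6 genes have 52.6% to 57.3% GC and 1619 to 7578 bases, so a fit that removes both trends from each library is given beside results whose call it changes.

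In the mouse genome (GRCm38) 5 of the genes lie within the MHC on chromosome 17. H2-K1 spans 33996017 to 34000347 on the minus strand, and H2-D1 lies at 35262730 to 35267499 on the plus strand. Tapbp lies at 33915899 to 33929292, Tap1 at 34187553 to 34197225 and Tap2 at 34203527 to 34216321, all on the plus strand. B2m is on chromosome 2 (122147686 to 122153083, plus strand) and Nlrc5 on chromosome 8 (94434356 to 94527272, plus strand). All 7 are protein coding, and the counts cover their exons.

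The promoters are shown as a description, and their part in the levels of these genes was not tested. RefSeq (GRCm38.p6) gave a promoter, 250 bases before to 50 bases after the annotated start, for 5 of the 7 genes, and none was at hand for Tap2 and Nlrc5. Capitals mark matches, on either strand, to 3 motifs: GGGNNTTCC, a κB-like site, GAANNGAAA, an interferon-response-like site, and the pair TGACG and ATTGG with 20 bases between them, which are the cores of the X2 and Y boxes of the class I promoter module. The windows are H2-K1 at chr17:34000298-34000597 (minus strand), H2-D1 at chr17:35262844-35263143, B2m at chr2:122147437-122147736, Tap1 at chr17:34187306-34187605 and Tapbp at chr17:33919228-33919527. Those of H2-D1 and Tapbp lie inside the gene spans given above, which begin further upstream. The sequence at these upstream starts was not searched.
H2-K1: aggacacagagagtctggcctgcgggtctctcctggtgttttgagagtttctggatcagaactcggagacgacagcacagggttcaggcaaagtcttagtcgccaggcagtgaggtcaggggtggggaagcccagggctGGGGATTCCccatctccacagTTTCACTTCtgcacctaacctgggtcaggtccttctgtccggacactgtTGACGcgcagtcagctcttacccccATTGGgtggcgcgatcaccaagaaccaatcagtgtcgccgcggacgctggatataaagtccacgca
H2-D1: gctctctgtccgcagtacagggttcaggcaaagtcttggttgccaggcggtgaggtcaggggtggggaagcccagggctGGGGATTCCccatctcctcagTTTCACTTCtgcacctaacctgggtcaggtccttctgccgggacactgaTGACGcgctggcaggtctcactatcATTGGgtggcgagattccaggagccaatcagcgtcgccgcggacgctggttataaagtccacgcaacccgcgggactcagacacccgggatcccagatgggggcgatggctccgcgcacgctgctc
B2m: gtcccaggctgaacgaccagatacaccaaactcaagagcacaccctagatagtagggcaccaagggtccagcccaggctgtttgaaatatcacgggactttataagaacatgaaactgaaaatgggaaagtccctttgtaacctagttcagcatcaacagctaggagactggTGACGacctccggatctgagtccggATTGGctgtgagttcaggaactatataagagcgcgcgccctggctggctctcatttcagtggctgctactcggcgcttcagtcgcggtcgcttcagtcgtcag
Tap1: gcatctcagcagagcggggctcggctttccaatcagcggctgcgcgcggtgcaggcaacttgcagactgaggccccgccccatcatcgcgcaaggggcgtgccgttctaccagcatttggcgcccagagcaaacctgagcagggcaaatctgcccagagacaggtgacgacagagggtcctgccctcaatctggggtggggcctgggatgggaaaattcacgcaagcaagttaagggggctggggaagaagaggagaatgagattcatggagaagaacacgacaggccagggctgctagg
Tapbp: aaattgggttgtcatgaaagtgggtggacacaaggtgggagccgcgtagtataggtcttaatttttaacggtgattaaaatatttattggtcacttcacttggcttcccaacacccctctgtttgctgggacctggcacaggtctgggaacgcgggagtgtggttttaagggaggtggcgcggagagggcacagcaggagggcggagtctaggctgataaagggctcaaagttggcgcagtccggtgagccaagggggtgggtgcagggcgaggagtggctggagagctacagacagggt
The heavy chain promoters held all 3 motifs in the same order (a second annotated start of H2-K1 held them too), the B2m promoter held the TGACG and ATTGG pair alone, and the Tap1 and Tapbp windows held none of the 3, though single TGACG or ATTGG words occurred in them, as in 20.8% and 37.4% of all promoters. Of all 32851 promoters of this length, 5.82% held the κB-like letters, 7.52% the interferon-response-like letters and 0.0944% the pair at this spacing. A further search, for the letters TTCNNNGAA of a GAS site, found them in 8.30% of all promoters and in none of these 5. The motifs were chosen with the sequences in view, and a match is a description of letters. No match says only that the letters are not in this window. Related letters of other form or spacing were not searched for. The B2m window holds gaaactgaaa and gggaaagtccc, for example, so it is not shown to lack interferon-response or κB sites.

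Per kilobase of exon, B2m was the highest member in all 8 groups and Nlrc5 the lowest, with the heavy chains next to B2m. Exon length here is that of all annotated exons together, 2938 bases for H2-K1 and 5476 for Tap1. Their longest coding transcripts have 1619 and 2953 bases. The order of members, and the place of B2m above the heavy chains, can change with the length used. In resting Tconvs the mean level per kilobase was 65978 for B2m, 16690 for H2-D1, 16103 for H2-K1, 1015 for Tapbp, 702 for Tap2, 503 for Tap1 and 116 for Nlrc5 (n = 3 libraries). The order across groups fell into 3 kinds. H2-K1 and H2-D1 were highest in activated tTregs and lowest in restimulated iTregs, with means 2.12 and 1.78 times apart. B2m was highest in activated Tconvs and lowest in activated tTregs, 2.75 times apart. Tap1, Tap2, Tapbp and Nlrc5 were all highest in activated Tconvs, where their libraries did not overlap any other group's. The groups next to each other in these orders often overlapped, and of the 7 steps of each order 2 (Tapbp) to 5 (Nlrc5) separated groups whose libraries lay apart. In Tap2, for example, resting iTregs, resting Tconvs and resting tTregs followed each other with overlapping libraries, and in Tapbp the 5 groups from restimulated iTregs with CM-4620 down to resting iTregs overlapped step by step.

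**Figure D1:**
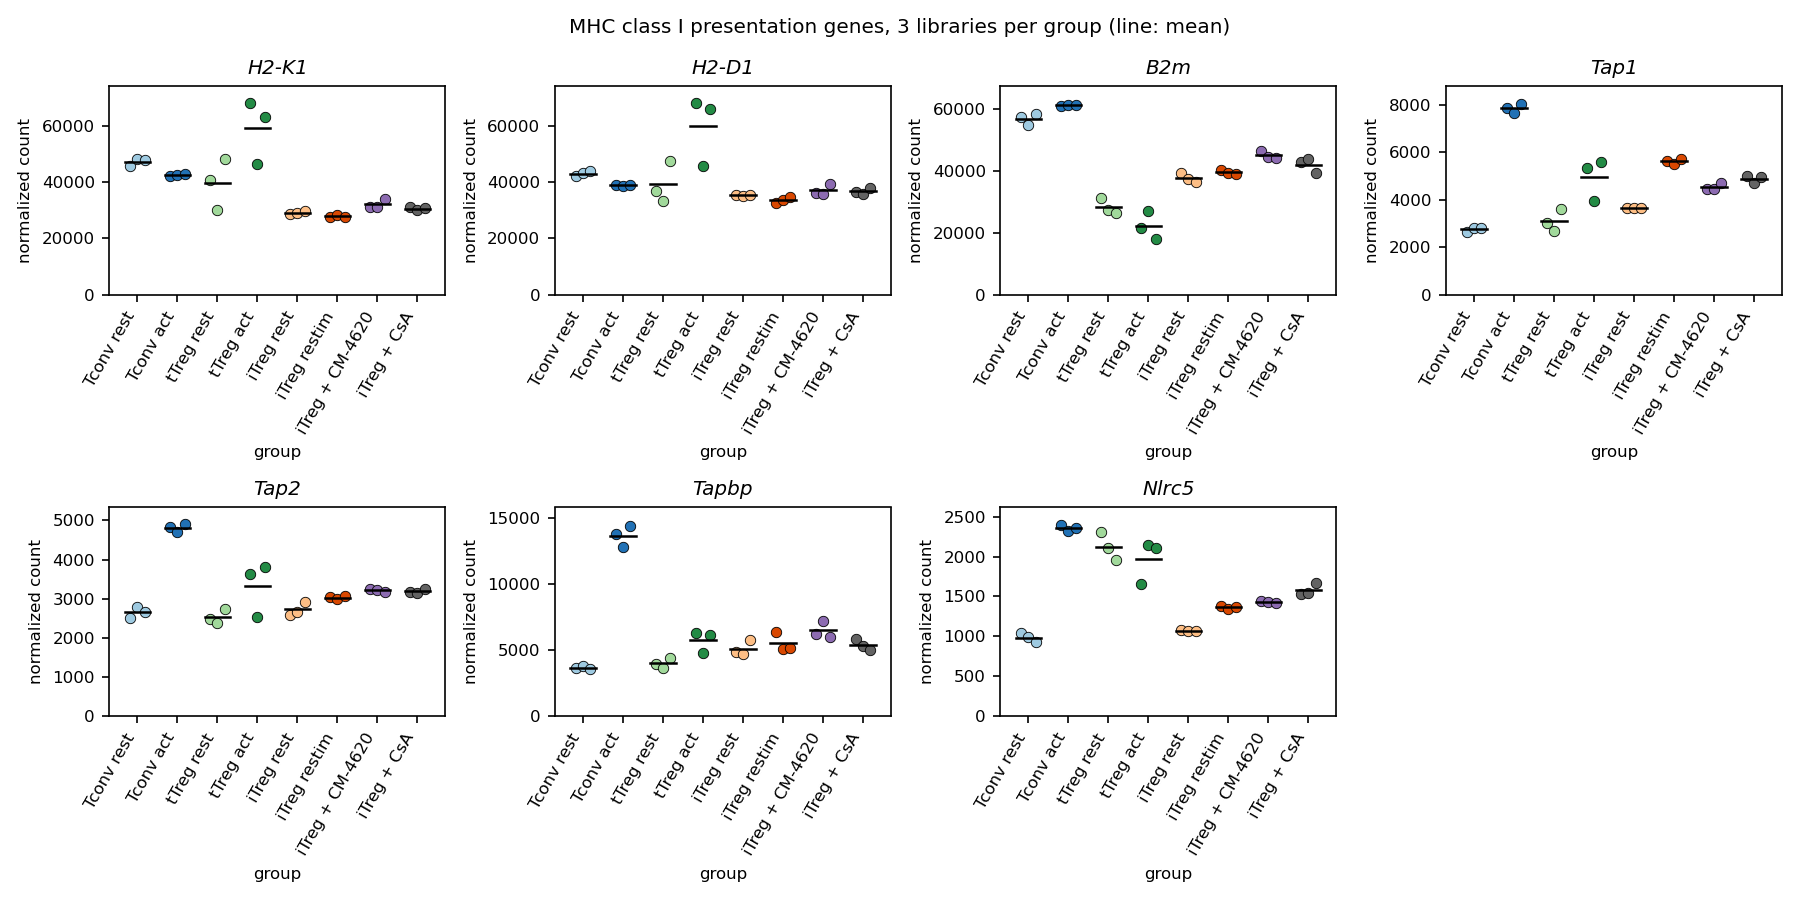
Normalized counts (y axis, from 0) of the 7 genes in the 8 groups (x axis), with 1 point per library and a line at the mean of 3. Activated Tconvs stand above the other groups in the 4 transporter and regulator panels, activated tTregs are highest in the heavy chain panels, and B2m is lowest in tTregs.

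Activation of Tconvs raised the transporter, tapasin and the transactivator, and left the heavy chains and the light chain near their resting level. Tapbp read 3663, 3798 and 3589 normalized counts in the resting libraries and 13775, 12809.6 and 14381 in the activated ones. This was a 3.70-fold rise (log2 1.89 ± 0.11 SE, adjusted p = 1.56e-09, limma). Tap1 went from 2649, 2804 and 2814 to 7873, 7635 and 8016, a 2.85-fold rise (adjusted p = 5.35e-08), and Tap2 from a mean of 2654 to 4809.75, a 1.81-fold rise (adjusted p = 2.02e-05). Nlrc5, the transactivator, rose 2.39-fold, from 1037, 990.5 and 927 to 2394, 2318 and 2353 (adjusted p = 2.59e-08). The resting and activated libraries lay apart in all 7 members, called or not, and the share over all genes was not counted. H2-K1 stood at 45704, 48319 and 47905 at rest and at 42207, 42610.1 and 43024 after activation, so all activated libraries were lower, but the log2 change of -0.15 did not pass the test (95% interval -0.48 to 0.18). H2-D1 changed by the same -0.15 (-0.46 to 0.16) and B2m by 0.11 (-0.15 to 0.37). The shared estimate of the spread includes the variable tTreg libraries, and with the Tconv libraries alone the adjusted p was 0.0112 for H2-K1 and 0.0106 for H2-D1 at the same sizes. With the GC and length trends removed, H2-K1 was at -0.38 (adjusted p = 0.0233) and B2m at -0.35 (adjusted p = 0.00253), both still under the size limit. Genes were called where the adjusted p was under 0.05 and the log2 change exceeded 0.5 in size. By these limits 4 of the 7 members were called, all higher, in a comparison where 50.2% of the genes tested were called (24.5% higher and 25.7% lower).

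In activated tTregs the heavy chains were called higher, as were Tap1 and Tapbp. H2-K1 read 40613, 30165 and 48099.6 in resting and 68005, 46309 and 63053 in activated tTregs, a log2 change of 0.58 ± 0.15 SE (adjusted p = 0.00930). H2-D1 went from 36812, 33198 and 47571 to 68164, 45557 and 65943, a log2 change of 0.61 (adjusted p = 0.00534). In both genes activated replicate 2 lay below resting replicate 3, so the groups overlapped. Tap1 rose 1.59-fold, from 2999, 2679.5 and 3606 to 5323, 3921 and 5577 (adjusted p = 0.000764), and Tapbp 1.44-fold, from a mean of 3991 to 5754 (adjusted p = 0.00217), both without overlap. Tap2 (log2 0.37, adjusted p = 0.0289) and B2m (-0.36, adjusted p = 0.0303) had adjusted p-values under 0.05 but changes under the size limit, and Nlrc5 was at -0.11 (adjusted p = 0.369). Thus 4 of 7 members were called, all higher, beside 21.9% of all genes tested (11.9% higher and 10% lower).

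The tTreg calls changed when single libraries were left out or the values were scaled otherwise, which the Tconv calls did not. Without resting replicate 2, H2-K1 changed by 0.40 and H2-D1 by 0.49, and Tap1 alone was called. Leaving out activated replicate 2 gave 0.75 and 0.79 instead. With the GC and length trends removed, H2-K1 changed by 0.36 (adjusted p = 0.0535), H2-D1 by 0.44, Tapbp by 0.40 and Tap1 by 0.55, and again Tap1 alone was called. A fit of the tTreg libraries alone gave an adjusted p of 0.0797 for H2-K1 and 0.0616 for H2-D1, while Tap1 (0.0317) and Tapbp (0.0370) were still called. Under quantile normalization H2-K1 changed by 0.03, H2-D1 by 0.09 and Tapbp by 0.38, and Tap1 (0.58) and B2m (-0.62) were the genes called. Activated replicate 2, the lowest of its group in H2-K1, H2-D1, Tap1, Tap2 and Tapbp and the highest in B2m, also had a GC dependence of -0.06 where the others had 0.20 and 0.10.

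The difference between the responses was tested directly. The tTreg response was larger than the Tconv response for H2-K1 (by 0.73 on the log2 scale, adjusted p = 0.0147) and H2-D1 (by 0.75, adjusted p = 0.00920). It was smaller for Nlrc5 (-1.37, adjusted p = 1.62e-06), Tapbp (-1.37, adjusted p = 7.05e-06) and Tap1 (-0.84, adjusted p = 0.00128). These 5 of 7 stood in a test where 34.7% of all genes were called (17.7% higher and 17% lower). Removing the GC and length trends left these 5 at 0.75, 0.73, -1.56, -1.48 and -0.96, each still called, but under quantile normalization H2-K1 (0.36, adjusted p = 0.116) and H2-D1 (0.40, adjusted p = 0.0824) were not. For Tap2 the difference was -0.49 (adjusted p = 0.0340) and for B2m -0.47 (adjusted p = 0.0390), both under the size limit. Other settings put both genes on either side of the limits. Tap2 was at -0.64 with the trends removed (adjusted p = 0.00130) and between -0.50 and -0.60 without any 1 of 4 tTreg libraries (resting replicates 1 and 2, activated replicates 1 and 3), called each time, but its adjusted p was 0.0585 under quantile normalization. B2m was at -0.15 with the trends removed (adjusted p = 0.353), its adjusted p was 0.0509 with the groups compared fitted alone, and it was called at -0.62 both under quantile normalization and without activated tTreg replicate 2.

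**Figure D2:**
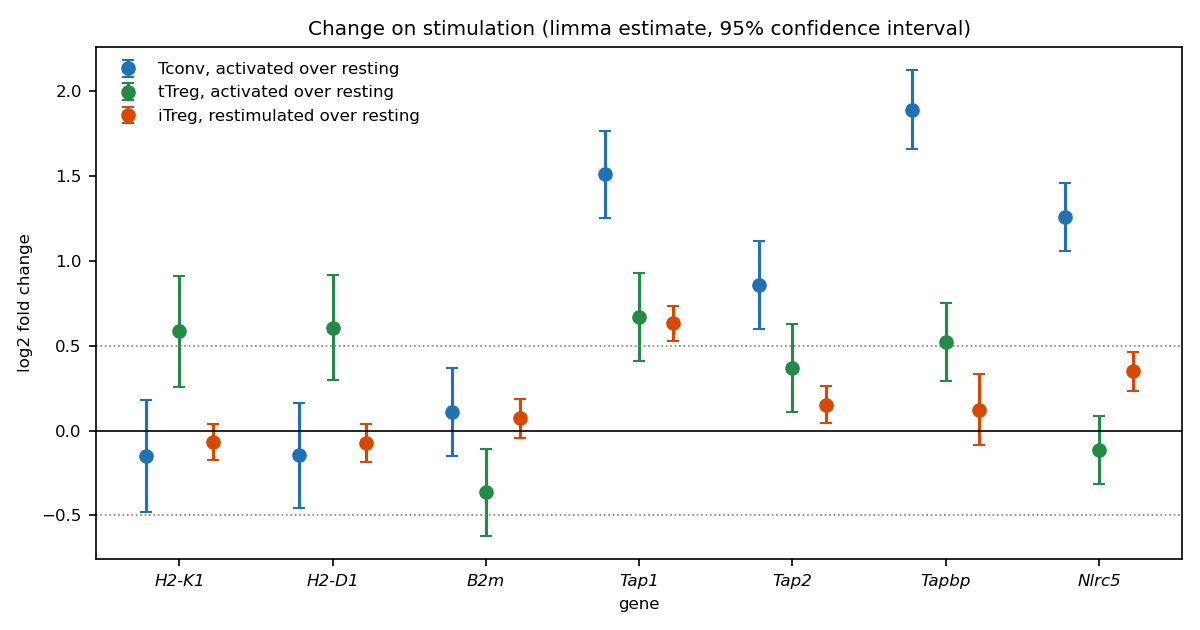
Log2 fold change (y axis) of each gene (x axis) on activation of Tconvs and tTregs and on restimulation of iTregs, with 95% confidence intervals from limma; dotted lines mark the size limit of 0.5. Tap1 lies above 0.5 in all 3 cell types, Tapbp and Nlrc5 are far higher in Tconvs, and the heavy chains rise above 0.5 in tTregs alone.

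At rest, tTregs and Tconvs differed in B2m and Nlrc5 and not detectably in the other 5 genes. B2m read 31026, 27331 and 26364 in tTregs against 57175, 54682 and 58366 in Tconvs, a log2 difference of -1.01 ± 0.12 SE (adjusted p = 5.70e-06). Nlrc5 was 2.15-fold higher in tTregs, at 2305, 2109.9 and 1957 against 1037, 990.5 and 927 (adjusted p = 1.60e-07). The libraries did not overlap in either gene, and 38.6% of all genes tested were called here (20.5% higher and 18.2% lower). Both differences were smaller with the GC and length trends removed, at -0.58 for B2m and 0.70 for Nlrc5, still past both limits. Under quantile normalization B2m was at -0.30 (adjusted p = 0.0469) and was not called. Nlrc5 in resting tTregs had a mean of 2124, beside 1970.3 in activated tTregs and 2355 in activated Tconvs. The heavy chains of resting tTregs stood at log2 differences of -0.28 (H2-K1, interval -0.61 to 0.05) and -0.15 (H2-D1, interval -0.46 to 0.16). Under quantile normalization H2-D1 was instead higher in tTregs, by 0.55 (adjusted p = 0.00168), and H2-K1 was at 0.49 (adjusted p = 0.00372).

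After activation 5 of 7 members differed between tTregs and Tconvs, where 48.2% of genes did (25.6% higher and 22.6% lower). H2-D1 was higher in tTregs by 0.60 (adjusted p = 0.00233), and H2-K1 was at 0.45 (adjusted p = 0.0191), under the size limit. Tapbp (-1.26), Tap1 (-0.68) and Tap2 (-0.56) were lower in tTregs, with adjusted p-values of 1.85e-07, 0.000193 and 0.00107. The Tap2 call was lost under quantile normalization (-0.42) and without activated tTreg replicate 2 (-0.37). B2m showed the widest gap, with 21634, 27030.2 and 17965 in tTregs and 60961, 61241 and 61324 in Tconvs (-1.48, adjusted p = 9.48e-08), and it was -0.72 with the GC and length trends removed. The same correction took H2-K1 to 0.60 and Nlrc5 from -0.27 to -0.86, both then called, and quantile normalization took H2-K1 to 0.85. The H2-D1 value was 0.50, just under the limit, without activated tTreg replicate 1.

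The light and heavy chains thus went apart in tTregs. The ratio of B2m to the summed heavy chains, each per kilobase of exon, was 2.09, 1.92 and 2.03 in resting and 2.40, 2.42 and 2.40 in activated Tconvs. It was 1.28, 1.37 and 0.88 in resting tTregs and 0.51, 0.94 and 0.44 in activated tTregs, all below every other library. In the 12 iTreg libraries it lay between 1.78 and 2.19. Each ratio is taken within a library and so does not depend on its size factor, but B2m differs from the heavy chains in GC content and length, and what those trends add to the ratio was not tested. The B2m differences between tTregs and Tconvs given above were smaller with both trends removed. The size of the ratios also depends on the exon length taken for each gene. They are given as a description, with no test.

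**Figure D3:**
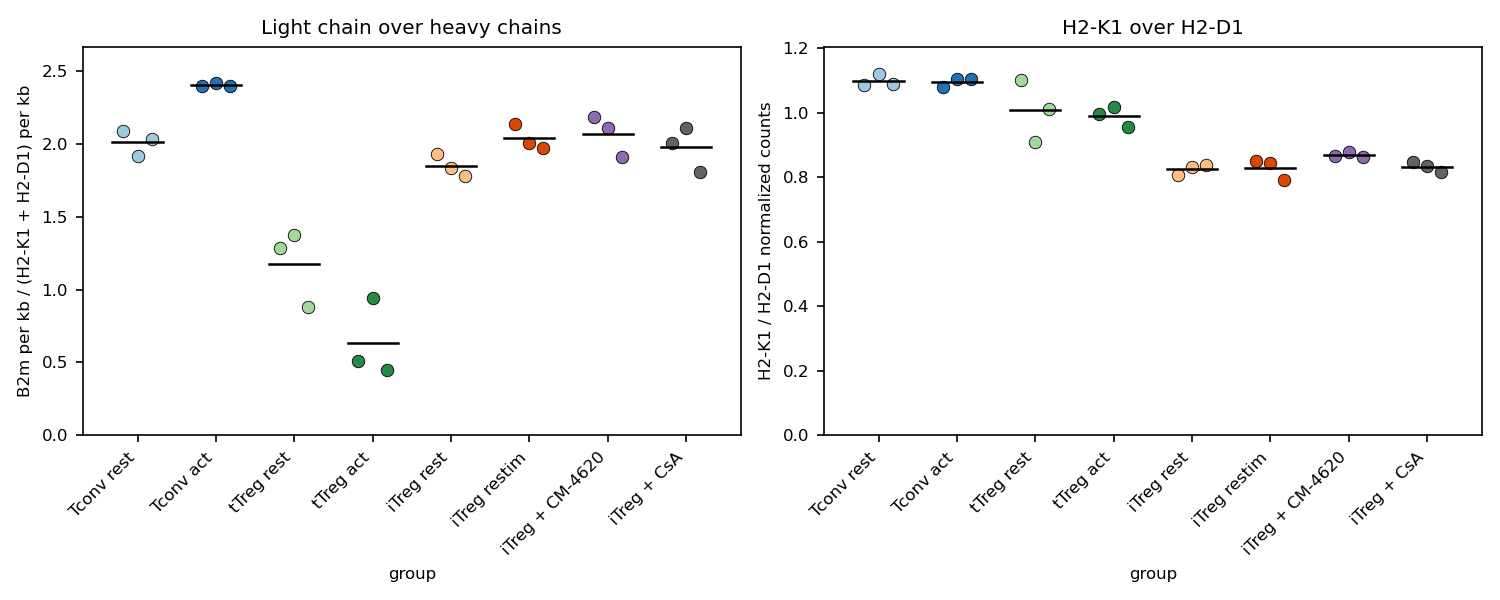
Left, B2m over the sum of H2-K1 and H2-D1, per kilobase of exon, and right, H2-K1 over H2-D1 (y axes, from 0), with 1 point per library and a line at the mean for the 8 groups (x axes). The tTreg libraries are lowest on the left, from 0.44 to 1.37, and the iTreg libraries are lowest on the right, from 0.79 to 0.88.

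Resting iTregs had less H2-K1 and B2m than resting Tconvs and the other 5 genes stayed within the size limit. H2-K1 read 28703, 29204 and 29652 against 45704 to 48319 in Tconvs (log2 -0.70, adjusted p = 0.000813), and B2m 39166, 37149 and 36430.2 against 54682 to 58366 (-0.59, adjusted p = 0.000393). Tapbp (0.46, adjusted p = 0.00141) and Tap1 (0.40, adjusted p = 0.00786) were higher without reaching the size limit. Just 2 of 7 members were called where 63.6% of all genes were (32.8% higher and 30.8% lower). With the GC and length trends removed H2-K1 was at -1.06, B2m at -0.88 and H2-D1 at -0.52, all 3 called. H2-D1 was at -0.28 (adjusted p = 0.0906) without that correction, and the ratio of H2-K1 to H2-D1 was 0.81, 0.83 and 0.84 in resting iTregs against 1.09, 1.12 and 1.09 in resting Tconvs. That ratio stayed between 0.79 and 0.88 in all 12 iTreg libraries and was 0.91 or higher in the other 12. The heavy chains share sequence, with 6.94% of the 50-base words of H2-K1 found in H2-D1, so part of their reads was assigned by RSEM's estimate.

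Against resting tTregs, where 63.4% of genes were called (32.3% higher and 31.1% lower), 1 member was called. Nlrc5 was at 1078, 1061 and 1068 in resting iTregs and at 1957 to 2305 in resting tTregs (-0.99, adjusted p = 2.07e-07). That difference was -0.29 with the GC and length trends removed and was then under the size limit, while H2-K1 went from -0.42 to -0.91 and B2m from 0.42 to -0.30. Under quantile normalization H2-K1 was at -1.23 and H2-D1 at -0.85, both called, against -0.42 and -0.13, and without resting tTreg replicate 2 H2-K1 was called at -0.60. Against activated Tconvs, 6 of 7 members were lower in resting iTregs, with 41.6% of genes called (22.9% higher and 18.7% lower). The differences ran from -1.43 for Tapbp and -1.14 for Nlrc5 to -0.55 for H2-K1, and H2-D1 was at -0.14 (adjusted p = 0.450). Under quantile normalization H2-K1 was at -0.40 (adjusted p = 0.0110) and 5 of 7 were called.

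On restimulation of iTregs 1 of the 7 genes was called higher, in a comparison where 12.8% of genes were called (6.7% higher and 6.13% lower). Tap1 read 3631, 3626 and 3641 in resting and 5644, 5509 and 5724 in restimulated iTregs, a 1.55-fold rise (log2 0.63 ± 0.05 SE, adjusted p = 1.93e-07). Nlrc5 went from 1078, 1061 and 1068 to 1382, 1338 and 1365, and Tap2 from a mean of 2726 to 3027. Their log2 changes of 0.35 (adjusted p = 0.000175) and 0.15 (adjusted p = 0.0368) stayed under the size limit. The libraries lay apart in 5 of the 7 members, called or not: Tap1, Nlrc5 and Tap2, but also H2-K1 and H2-D1. The share over all genes was not counted. Tapbp was at 0.12 (interval -0.09 to 0.33), H2-K1 at -0.07 (-0.17 to 0.04), H2-D1 at -0.07 (-0.19 to 0.04) and B2m at 0.07 (-0.05 to 0.19).

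Set beside Tconv activation, the iTreg response was smaller for 4 genes, with 44.2% of genes called in that test of the difference (21.7% higher and 22.6% lower). These were Tapbp (-1.77, adjusted p = 4.32e-09), Nlrc5 (-0.91, adjusted p = 6.75e-07), Tap1 (-0.88, adjusted p = 2.49e-05) and Tap2 (-0.71, adjusted p = 0.000251). Against tTreg activation 21.3% of genes were called (9.01% higher and 12.3% lower) and the heavy chains differed, H2-K1 by -0.65 (adjusted p = 0.00930) and H2-D1 by -0.68 (adjusted p = 0.00503). B2m (0.43, adjusted p = 0.0254) and Nlrc5 (0.46, adjusted p = 0.00381) were under the size limit, and Tap1 differed by -0.04, with an interval of -0.33 to 0.26. The heavy chain differences rested on the tTreg libraries: with the groups compared fitted alone the adjusted p was 0.0749 for H2-K1 and 0.0545 for H2-D1, and without resting tTreg replicate 2 the H2-K1 difference was -0.47, under the size limit. Under quantile normalization they were -0.10 and -0.24, and neither was called. With the GC and length trends removed H2-K1 was at -0.48 and no longer called, H2-D1 at -0.54 and B2m at 0.52.

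In level, restimulated iTregs were below activated Tconvs in 5 of 7 members (44.3% of genes called, 24.4% higher and 20% lower). Tapbp was lower by 1.31 on the log2 scale (5547 against 13655 in the mean), Nlrc5 by 0.79, Tap2 by 0.67, B2m by 0.63 and H2-K1 by 0.61. Tap1 was at -0.48 (adjusted p = 0.000322) and H2-D1 at -0.21 (adjusted p = 0.140). With the GC and length trends removed Tap1 was called at -0.66, and B2m, at -0.50, fell just short of the size limit. Quantile normalization took H2-K1 to -0.47, under the limit, and Tap1 to -0.56, past it. Compared with activated tTregs, 4 of 7 members were called, next to 59.3% of genes (30.5% higher and 28.8% lower). Restimulated iTregs were lower in H2-K1 (-1.07, adjusted p = 1.49e-07), H2-D1 (-0.81, adjusted p = 3.60e-06) and Nlrc5 (-0.52, adjusted p = 4.61e-06), and higher in B2m (0.85, adjusted p = 1.29e-07). Removing the GC and length trends took Nlrc5 to 0.0025 and B2m to 0.24, and left H2-K1 at -1.38 and H2-D1 at -0.98. B2m was at 0.31 under quantile normalization, and Nlrc5 at -0.46 and -0.47 without activated tTreg replicates 2 and 3, all under the size limit.

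Neither inhibitor moved a member past both limits during restimulation. With CM-4620, 0 of 7 members were called in limma, edgeR and DESeq2 (3.3% of all genes in limma, 1.5% higher and 1.79% lower), with 5 of 7 at an unadjusted p below 0.05 and 3 of 7 at an adjusted one. By adjusted p alone, 869 of all 11105 genes tested passed in limma. The share of all genes at an unadjusted p was not counted. Tap1 read 4466, 4465 and 4716 with CM-4620 against 5509 to 5724 without it, a log2 change of -0.31 ± 0.05 SE (adjusted p = 0.000864). H2-K1 (31272, 31298 and 34060.4, against 27517 to 28457) and B2m (46414, 44353 and 44166, against 38872 to 40297) were higher by 0.21 (adjusted p = 0.0165) and 0.19 (adjusted p = 0.0493). The libraries did not overlap in these 3 genes, nor in H2-D1, Tap2 and Nlrc5, and the share over all genes was not counted. CsA likewise gave 0 of 7 in the 3 tools (2.92% of all genes in limma, 1.57% higher and 1.35% lower), with 4 at an unadjusted p below 0.05 and 2 at an adjusted one. Here 945 of all 11105 genes passed by adjusted p alone, and the share at an unadjusted p was again not counted. Under CsA, Tap1 read 4989.93, 4678 and 4967 (-0.21, adjusted p = 0.0154) and Nlrc5 1533, 1540.45 and 1673 against 1338 to 1382 (0.22, adjusted p = 0.0219).

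Measured from resting iTregs instead, Tap1 stood at 0.63 without inhibitor, at 0.32 with CM-4620 and at 0.42 with CsA, values that share the resting libraries. Nlrc5 stood at 0.35, 0.42 and 0.56 in that order, and Tap2 at 0.15, 0.24 and 0.23. Nlrc5 with CsA was the 1 member called against resting iTregs (adjusted p = 2.86e-06, 9.43% of genes called, 5.19% higher and 4.24% lower), and with CM-4620 0 of 7 were called by limma, edgeR or DESeq2 (7.1% of genes in limma, 3.97% higher and 3.13% lower), although 6 had an unadjusted and 5 an adjusted p below 0.05. With CM-4620 against rest, 2045 of all 11105 genes passed by adjusted p alone, and the share at an unadjusted p was not counted. The inhibitors were also set against each other at the single dose used of each, which the sources used here do not give for these libraries. In that comparison 0.36% of genes were called (0.0991% higher and 0.261% lower) and 0 of 7 members, by any of the 3 tools, with 2 at an unadjusted p below 0.05. The share of all genes at that unadjusted p was not counted. Tapbp was 0.27 higher with CM-4620 than with CsA (interval 0.06 to 0.47, adjusted p = 0.305) and Nlrc5 0.14 lower (interval -0.26 to -0.03, adjusted p = 0.298), and for Tap1 the difference was -0.10 (interval -0.20 to 0.00).

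**Figure D4:**
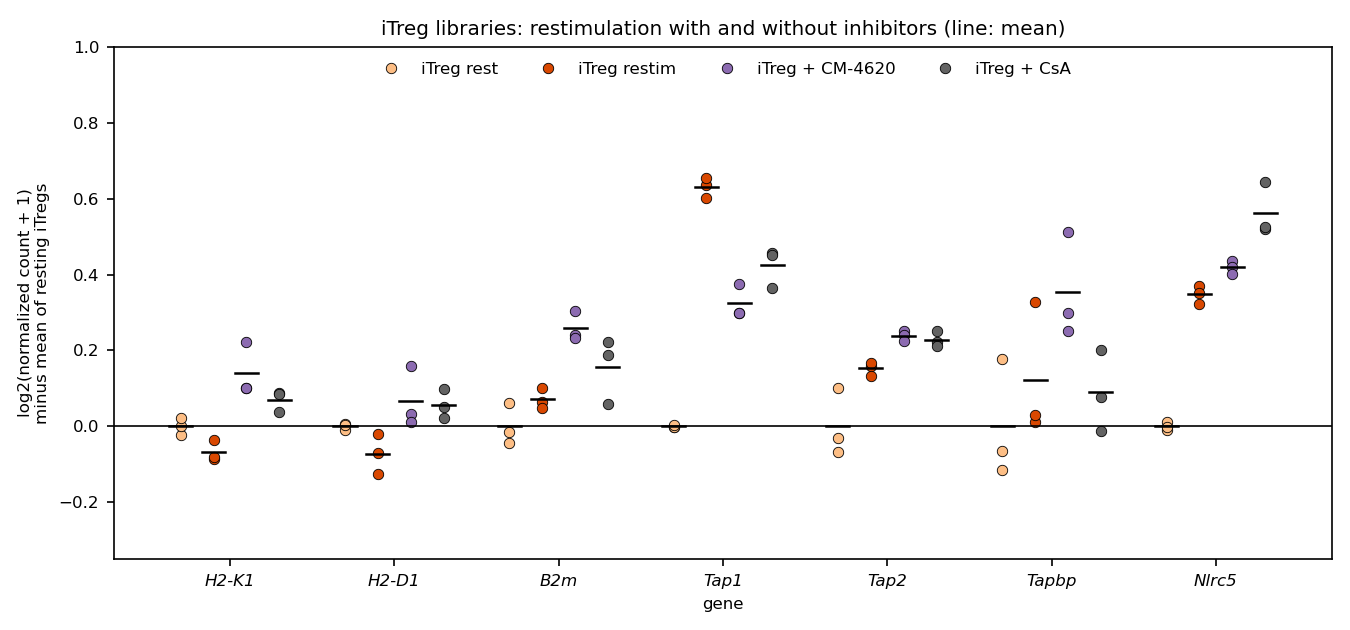
Difference of each iTreg library from the mean of resting iTregs, in log2(normalized count + 1) (y axis), for the 7 genes (x axis), with 1 point per library and a line at the mean of 3. Tap1 is highest in restimulated iTregs (0.63) and lower with either inhibitor, while Nlrc5 is highest with CsA (0.56).

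Genes that cut, trim and load peptides also rose on Tconv activation. All 5 subunits of the immunoproteasome and its PA28 activator rose on Tconv activation, among them Psme1 (2434 to 9914, log2 2.03), Psmb9 (1155 to 5038, 2.12), Psme2 (1.82) and Psmb8 (1.80), and the median of the list was 1.82 against -0.04 over all genes, of which 24.5% were called higher and 25.7% lower. In tTregs 1 of 5 was called higher (Psme1, 0.58) and in restimulated iTregs 1 of 5 (Psmb9, 0.55), with list medians of 0.40 and 0.44, where 11.9% and 6.7% of all genes were called higher. The difference between the tTreg and Tconv responses passed the test in all 5 (17% of all genes were called lower in it), from -0.98 for Psmb10 to -1.72 for Psmb9. Psmb9 lies beside Tap1, and 3.87% of the exon bases of Tap1 overlap it on the other strand, which unstranded reads cannot assign. Of 7 loading and trimming genes, 5 rose and 1 fell in Tconvs, beside the same 24.5% and 25.7% of all genes. Calreticulin (Calr, 1.66), the tapasin relative Tapbpl (1.51) and the trimming peptidase Erap1 (1.31) rose most, and Lnpep, a peptidase of endosomes, fell (-1.09). Calr (0.88) and Pdia3 (1.10) were the 2 of 7 called higher in tTregs, beside 11.9% of all genes. In restimulated iTregs Tapbpl was at 0.35 (adjusted p = 0.00936), under the size limit.

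Nonclassical class I genes split. Of 17 listed, 11 were expressed enough to test. In activated Tconvs H2-T23, which encodes Qa-1 (3157 to 11333, log2 1.84), H2-T24 (1.81) and H2-T22 (0.97) rose, and 5 fell, among them Cd1d1, which presents lipids to NKT cells (1045 to 209, -2.32), Mr1 (-1.21) and H2-Q6 (-0.91). H2-T23 also rose in tTregs (0.58) and restimulated iTregs (0.86), and it was the 1 gene of the list called higher in all 3. The 3 and 5 of 11 in Tconvs stood beside 24.5% and 25.7% of all genes. In resting iTregs 7 of the 11 were lower than in resting Tconvs, as were 30.8% of all genes, led by Cd1d1 (53.1 against 1045, -4.28), H2-Q6 (592 against 4540, -2.94) and H2-Q7 (3646 against 10096, -1.47). The Q genes share sequence with H2-D1 (7.40% of its 50-base words occur in H2-Q1 and 5.99% in H2-Q7), so their split from it is uncertain.

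Among 19 regulators and receptors upstream of class I, 6 rose and 4 fell in activated Tconvs, shares of the list near the 24.5% and 25.7% of all genes. Irf1, an interferon-induced transcription factor, went from 1611 to 6557 (log2 2.02), Stat2 rose by 1.34 and Nfkb1 by 1.10. Ifngr1, the ligand-binding chain of the interferon-γ receptor, fell from 8911 to 1253 (-2.83). In tTregs 2 of the 19 rose and 3 fell, beside 11.9% and 10% of all genes, and Ifngr1 fell from 28077 to 17166 (-0.71). Irf1 was at 1259 and 1403 in resting and activated tTregs and was not called. The difference of the responses was -1.86 for Irf1 and 2.12 for Ifngr1, both called. In that difference 1 gene of the list was called higher and 6 lower, beside 17.7% and 17% of all genes. In restimulated iTregs Stat2 (1.05) and Irf1 (1116 to 2206, 0.98) rose, where 6.7% of all genes were called higher. With CM-4620 Stat2 was the 1 gene of the 19 called (-0.62 against restimulation alone), beside 1.79% of all genes called lower. With CsA Stat2 was at -0.46 (adjusted p = 0.000826), under the size limit.

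Class II genes, listed for contrast, had means of 10.1 or less in resting Tconvs except H2-DMa. In activated Tconvs 5 of 7 rose (24.5% of all genes), among them H2-DMa (342 to 2809, log2 3.03) and the invariant chain Cd74 (8.22 to 355, 5.27), and in tTregs 2 of 7 did (11.9% of all genes), with Cd74 at 28.8 and 60.7. Resting iTregs exceeded resting Tconvs in 6 of 7 (32.8% of all genes), with H2-Ab1 at 639 against 10.1. Against restimulation alone, H2-Ab1 was lower with CM-4620 (-0.56) and with CsA (-0.56), and Cd74 was higher with CM-4620 (0.62).

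**Figure D5:**
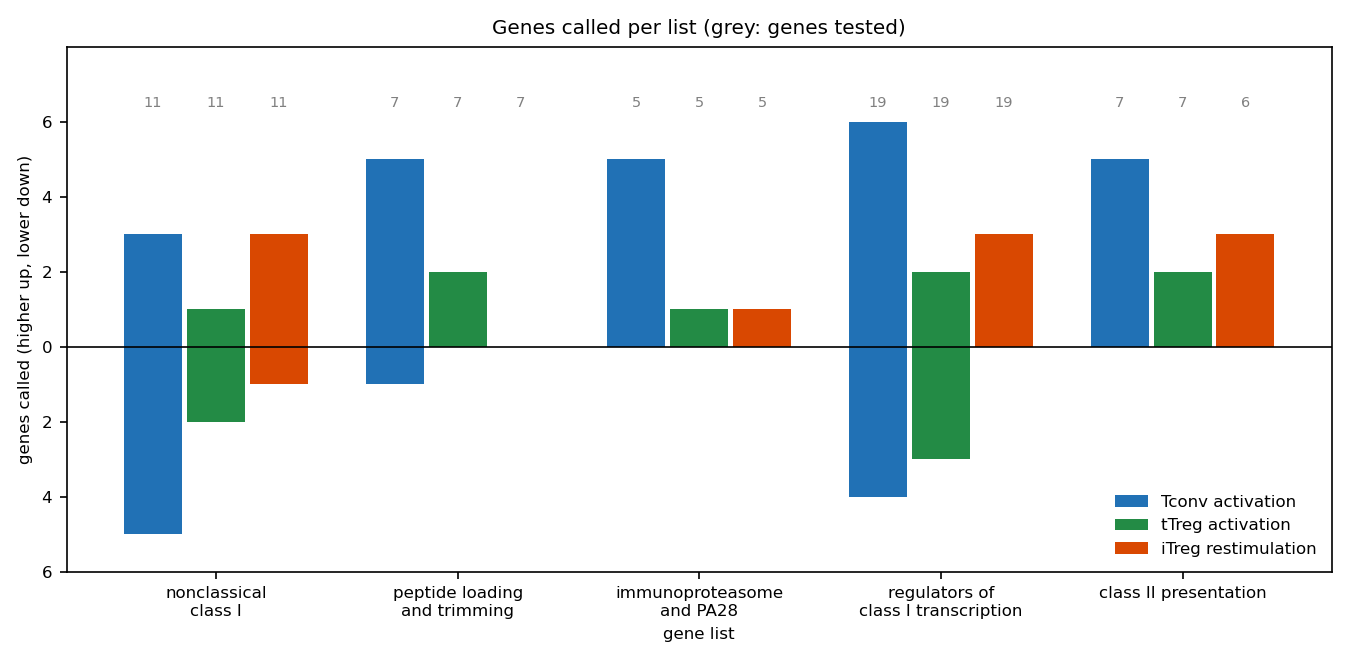
Number of genes called higher (above 0) and lower (below 0) on the y axis for 5 lists of related genes (x axis) on Tconv activation, tTreg activation and iTreg restimulation, with the number tested in grey. The immunoproteasome bars reach 5 of 5 in Tconvs and 1 of 5 in the other cells.

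Correlations over the 24 libraries are a description, since libraries of a group share their condition. H2-K1 and H2-D1 had a Pearson r of 0.91 (Spearman rho 0.94). Tap1, Tap2 and Tapbp had r between 0.89 and 0.94 with one another, and Nlrc5 had 0.50 to 0.52 with each of them. B2m had -0.26 with H2-K1 and -0.51 with H2-D1, but the rank correlations were 0.02 and -0.02. The genes outside the 7 whose pattern was most like their mean were Hnrnpdl (r = 0.90), Cd68 (0.90), Shq1 (0.89), Tapbpl (0.89) and Pex2 (0.89), of 11718 genes. That mean joins members that did not follow one another, so a high r with it is not likeness to each of the 7. Tapbpl, at place 4, is a loading gene of the lists, Irf1 followed at place 11 and H2-T23 at 12. Cd68 was among the myeloid markers and was at 101 in activated Tconvs and 11.4 to 50.0 in the other groups, where Lyz2 was between 0 and 3.12 in the mean. By rank correlation 1 of these 5 genes stayed among the top 5.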

How the data were processed

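RNA-seq libraries were made by a modified SMART-seq2 protocol, which does not keep strand. The authors trimmed reads with cutadapt (version 1.18), aligned them to mm10 with STAR (version 2.5.3) and counted genes with RSEM (version 1.3.0). The authors then divided each library's counts by a size factor and deposited the quotients, a signal called normalized counts here. Division by the lowest nonzero value of a library gave whole reads for 100% of its values (tolerance 0.01 reads), and hence its depth. Counts shared between similar or overlapping genes cannot be told apart from these files: 29.0% of the exon bases of Tapbp and 18.5% of those of Tap2 overlap another gene, mostly on the other strand.

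Genes reaching 10 normalized counts in 3 or more libraries of a fit were tested as log2(value + 1) with limma 3.58.1 (R 4.3.3) with a variance trend and Benjamini-Hochberg adjustment over all genes: 11495 genes in 15 libraries (Tconvs, tTregs, resting iTregs), 11105 in the 12 iTreg libraries, and 11725 in all 24 where restimulated iTregs meet other cells. Called genes had adjusted p under 0.05 and a log2 change over 0.5 in size. On simulated reads, 195 of 200 changed genes were called for Tconv activation and 196 of 200 for iTreg restimulation. Unchanged genes called were 7 and 20. The planted changes were all well past the size limit, in genes not near the floor, with the same spread in every library. The simulation therefore does not cover changes near the limit or the more variable tTreg libraries. A floor of 3 reads was worth 2.12 to 5.45 normalized counts, and covers counting error only. No replicate was a copy of another.

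The alternatives were edgeR 4.0.16 (quasi-likelihood) and DESeq2 1.42.0 on the recovered reads, other scalings, pseudocounts, filters and thresholds, the groups compared alone, all 24 libraries together, a replicate block and each library left out. A correction of each library for GC content and transcript length (splines with 4 degrees of freedom, 99.3% of genes matched) was chosen after seeing the data. The members and gene lists were chosen with earlier results of these data known. Named genes were the members, up to 4 called genes with the largest change per list and comparison, of which some are printed, the 5 genes most alike in pattern and the markers; a few other list genes are named after their values were seen. Some list genes are counted but not reported here by name. Positions and exons come from GENCODE on GRCm38, an older release than the authors used.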

Additional observations from a re-analysis of the deposited data

Results flagged for a closer look

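Differences between 2 cell types in the response to stimulation were flagged where the difference itself had an adjusted p below 0.05 (limma interaction).

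Between tTreg and Tconv activation all 7 genes met that rule: H2-K1 at 0.73, H2-D1 at 0.75, B2m at -0.47, Tap1 at -0.84, Tap2 at -0.49, Tapbp at -1.37 and Nlrc5 at -1.37 on the log2 scale, tTreg minus Tconv. Of these, B2m and Tap2 were under the size limit of 0.5. The B2m difference missed the threshold with the GC and length trends removed (-0.15, adjusted p = 0.353), with the groups compared fitted alone (adjusted p = 0.0509) and without any 1 of 3 tTreg libraries (resting replicate 1, activated replicates 1 and 3, adjusted p 0.0653 to 0.0944). Tap2 missed it without resting tTreg replicate 3 (-0.43, adjusted p = 0.0708) and under quantile normalization (-0.45, adjusted p = 0.0585), where the differences of H2-K1 (0.36, adjusted p = 0.116) and H2-D1 (0.40, adjusted p = 0.0824) missed it too.

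The iTreg response minus the Tconv response was flagged for Tap1 (-0.88), Tap2 (-0.71), Tapbp (-1.77) and Nlrc5 (-0.91). For the iTreg response minus the tTreg response the genes were H2-K1 (-0.65), H2-D1 (-0.68), B2m (0.43) and Nlrc5 (0.46). Both differences use the same iTreg libraries.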

How the results depend on the processing

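Member calls counted here are of 7, with the value first given in the report as the reference. With the threshold raised to an absolute log2 change above 1, the count went from 4 to 0 for tTreg activation, 5 to 2 for the tTreg minus Tconv response, 5 to 2 for activated tTregs against activated Tconvs, 2 to 0 and 1 to 0 for resting iTregs against resting Tconvs and tTregs, 6 to 3 for resting iTregs against activated Tconvs, 1 to 0 for iTreg restimulation, 1 to 0 for CsA against rest, 5 to 1 and 4 to 1 for restimulated iTregs against activated Tconvs and tTregs, 4 to 1 for the iTreg minus Tconv response and 2 to 0 for the iTreg minus tTreg response. With the adjusted p alone it was 4 for resting iTregs against Tconvs and 4 against tTregs, 3 for iTreg restimulation, 3 for CM-4620 and 2 for CsA against restimulation, 5 and 4 for the same inhibitors against rest, and 4 for the iTreg minus tTreg response. These changes follow from the thresholds themselves.

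Quantile normalization gave 2 calls for tTreg activation and 3 for resting iTregs against tTregs. It turned H2-D1 in resting tTregs against resting Tconvs from -0.15 to 0.55. With the groups compared fitted alone, 2 members were called for tTreg activation and 0 for the iTreg minus tTreg response. The GC and length correction, chosen after seeing the data, gave 1 call for tTreg activation and 2 for restimulated iTregs against activated tTregs, where Nlrc5 went from -0.52 to 0.0025. For each of these the cause was not tested. Leaving out 1 library moved the count for tTreg activation between 1 (without resting replicate 2) and 6 (without activated replicate 2), with 2 without activated replicate 1. It moved the iTreg minus tTreg response between 1 and 5 by the same 2 libraries, and resting iTregs against tTregs between 1 and 2 (without resting tTreg replicate 2). By Spearman's rho 1 of the 5 most alike genes stayed. Of 2618 alternative values of single members, 65 lost a call, 66 gained one, and 2 that were called with or without the alternative changed sign. The other 2485 stayed on the same side of the thresholds, among them 33 that changed sign without being called, such as H2-K1 in resting tTregs against resting Tconvs (-0.28 to 0.49 under quantile normalization). Of all 35 changes of sign, 5 had an adjusted p under 0.05.

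Same-numbered libraries did not deviate together throughout (correlation -0.42 to 0.24 in the 15 libraries, -0.04 to 0.30 in the iTreg libraries), so the numbers were not taken as pairs. With the replicate block the member counts were 4, 4 and 1 for Tconv activation, tTreg activation and iTreg restimulation, as without it, and the count was also the same in all 18 comparisons. Over all genes, the block gave 5742, 2455 and 1500 calls against 5774, 2517 and 1425.

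Over all genes, calls at a log2 change above 1 were 1.53 to 6.67 times fewer (3047, 763 and 471 in the same 3 comparisons), and by adjusted p alone they were 3994 for tTreg activation, 3264 for iTreg restimulation and 869 and 945 for CM-4620 and CsA against 366 and 324, 2045 and 2705 for both against rest, and 86 between them. A filter of 100 gave 878 for iTreg restimulation, 213 for CsA, and 479 and 654 against 789 and 1047 for CM-4620 and CsA against rest. One fit of all 24 libraries gave 232, 187 and 10 calls for CM-4620, CsA and CM-4620 against CsA (366, 324 and 40). Quantile normalization took the share of higher calls from 55.06% to 42.49% for resting, and from 54.92% to 43.68% for restimulated iTregs against activated Tconvs. The log2 limit of 1 moved that share from 54.27% to 65.14% for tTreg activation, 55.01% to 67.8% for CsA against rest and 54.92% to 65.37% for restimulated iTregs against activated Tconvs. With 3 libraries a group, small changes in the variable tTregs are the least certain.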
